A study of Mus musculus with 5 samples.

Results

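NF_Pvalb is the type of parvalbumin-expressing proprioceptor neuron in single-cell RNA counts of mouse lumbar dorsal root ganglia (DRG), the ganglia that hold the cell bodies of sensory neurons. Its members are the 113 cells that the authors' deposited annotation calls NF_Pvalb, of 3352 cells in 14 types. The cells came from 5 wild type C57BL/6 mice (3 males and 2 females) that were 18 weeks old and untreated, so there was 1 condition and all comparisons are between types within the same animals. Each of the 5 libraries was taken as 1 mouse, and they are named Sample1 to Sample5. Neither the sex nor a numbered sample label could be assigned to a library. The cells were dissociated by enzymes and captured in droplets, and a unique molecular identifier (UMI) marked each captured transcript at its 3′ end. UMIs were summed over the cells of a type in a library, and levels are given as UMIs per 1000000 UMIs of that sum (CPM), as mean ± SD over the 5 libraries unless stated otherwise.

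Proprioceptors report muscle length, muscle tension and joint position to the spinal cord. Their endings lie in muscle spindles and Golgi tendon organs, their thick myelinated axons conduct fast, and some contact motor neurons directly. They depend on neurotrophin-3 and its receptor TrkC, the product of Ntrk3. The transcription factor Runx3 keeps them apart from touch receptors, and Etv1 is needed for their connections. Parvalbumin, the product of Pvalb, is a protein that binds calcium and buffers it.

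Promoter windows of 4 genes that mark the type are given. For Runx3, Spp1 and Etv1 the printed window is the one that held a match to the RUNX motif. A Pvalb window without a match is printed beside them. Whrn, Pln and Esrrg were also high in every library, but their windows held no match and are not printed. All windows are from RefSeq on GRCm38.p6, the same assembly as the mm10 build of the counts. They run from 250 bases before to 50 bases after a start site, in the direction of the gene. Capitals mark the RUNX motif, searched as TGTGGT or TGCGGT on both strands. On the opposite strand it reads ACCACA or ACCGCA.
Pvalb, chr15:78206351-78206650, minus strand: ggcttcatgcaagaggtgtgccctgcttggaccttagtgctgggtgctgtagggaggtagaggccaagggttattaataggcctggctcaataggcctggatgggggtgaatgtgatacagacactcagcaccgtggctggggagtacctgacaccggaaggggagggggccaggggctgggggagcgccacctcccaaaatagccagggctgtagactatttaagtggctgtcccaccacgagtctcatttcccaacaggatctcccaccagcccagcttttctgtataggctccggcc
Runx3, chr4:135120395-135120694, plus strand: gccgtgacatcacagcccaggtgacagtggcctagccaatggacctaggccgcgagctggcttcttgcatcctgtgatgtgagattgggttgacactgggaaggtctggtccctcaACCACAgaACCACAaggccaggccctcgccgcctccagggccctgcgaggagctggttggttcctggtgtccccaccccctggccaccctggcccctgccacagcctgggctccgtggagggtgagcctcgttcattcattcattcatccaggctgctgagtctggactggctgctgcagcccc
Spp1, chr5:104434861-104435160, plus strand: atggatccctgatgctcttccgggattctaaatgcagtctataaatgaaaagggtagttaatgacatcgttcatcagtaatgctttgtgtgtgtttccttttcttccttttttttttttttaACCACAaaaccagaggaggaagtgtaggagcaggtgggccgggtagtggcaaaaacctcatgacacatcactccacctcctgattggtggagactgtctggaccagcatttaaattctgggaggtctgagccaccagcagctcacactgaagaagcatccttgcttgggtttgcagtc
Etv1, chr12:38779832-38780131, plus strand: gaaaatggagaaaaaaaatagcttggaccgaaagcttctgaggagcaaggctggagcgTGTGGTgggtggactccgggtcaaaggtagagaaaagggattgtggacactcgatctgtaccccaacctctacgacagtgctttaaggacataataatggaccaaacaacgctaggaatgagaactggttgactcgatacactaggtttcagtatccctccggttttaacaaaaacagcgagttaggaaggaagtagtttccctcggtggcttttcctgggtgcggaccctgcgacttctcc

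The Runx3 window held 2 matches, which began 134 and 126 bases before the start site. The Spp1 window held 1 match at 128 bases and the Etv1 window 1 at 192 bases before the start, while the Pvalb window held none. Of all 14 windows of 7 marker genes searched (Pvalb, Runx3, Spp1, Etv1, Whrn, Pln and Esrrg) these were the only 3 with a match, and the other windows of Runx3, Spp1 and Etv1 held none. The motif was present in the windows of 25% of 27025 genes. It was found in 4 of the 18 genes with a window among the 20 genes most particular to NF_Pvalb which are named further on, or 22.2%, and in 6 of the 14 with a window among the 15 genes with the largest difference from the other neurons, or 42.9%. The lists are short and share genes, and the shares were not tested. A half-site of the estrogen-related receptors, AAGGTCA on either strand, was in the windows of 5.38% of all genes and of 0 genes of either list. These matches describe letters in the windows and were not tested for binding.

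NF_Pvalb made up 3.16 ± 0.773% of the cells of a library (n = 5) and 3.57 ± 0.680% of the neurons, and ranked 11th of the 14 types by mean share. Sample1 held 6 of 164 cells (3.66%, exact Clopper-Pearson 95% interval 1.35 to 7.79%), Sample2 13 of 539 (2.41%, 1.29 to 4.09%), Sample3 12 of 474 (2.53%, 1.31 to 4.38%), Sample4 24 of 805 (2.98%, 1.92 to 4.40%) and Sample5 58 of 1370 (4.23%, 3.23 to 5.44%). The intervals of all 5 libraries overlapped, and they cover counting error only. The share describes dissociated cells that passed the authors' filters, and losses of a cell type in dissociation could not be measured. The NF_Pvalb cells held 7613211 of the 224553219 UMIs, from 521495 in Sample1 to 3282958 in Sample5. Values of Sample1 therefore rest on 6 cells and are the least precise.

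The libraries otherwise resembled each other. Across genes, the NF_Pvalb sums of any 2 libraries correlated with a Pearson r between 0.952 and 0.984 on log2(CPM + 1). Of 3345 distinct barcodes 7 occurred in more than 1 library, and none of these belonged to an NF_Pvalb cell. NF_Pvalb cells held 15052 to 136113 UMIs, with a median of 66720 UMIs and 7317 genes.

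Levels of Pvalb, Runx3 and Ntrk3 are described first. The types came from clusters of these same counts, and Pvalb is part of the name of this type. High levels of such markers were therefore partly given by the choice of cells. They describe the type and do not test its label. Pvalb (chr15:78191112-78206400) stood at 2504, 2394, 3089.8, 2795 and 3083 CPM in Sample1 to Sample5. It was 148 ± 84.8 CPM in NF_Calb1, the neurofilament type with the next highest level, and 16.0 ± 8.84 CPM over the other neurons together. The lowest NF_Pvalb library was about an order of magnitude above the highest NF_Calb1 library, at 236 CPM, so the groups did not overlap.

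Runx3 (chr4:135120645-135177990) reached 111, 155, 144, 166 and 169.7 CPM in the NF_Pvalb cells of Sample1 to Sample5. NF_Calb1 came next with 73.8, 23.9, 22.1, 28.2 and 22 CPM in the same libraries, and Runx3 was 0.0837 ± 0.187 CPM in NF2_Ntrk2.Necab2. Both ranges were separate, and the narrowest gap was that of Sample1. Ntrk3 (chr7:78179986-78581034) was 205, 185, 176, 153 and 147 CPM in NF_Pvalb. It was higher in NF_Calb1, at 341 ± 75.6 CPM, and in every library NF_Pvalb was below NF_Calb1 for this gene. Ntrk3 therefore marked NF_Pvalb among neurons as a whole but did not set it apart from NF_Calb1.

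**Figure D1:**
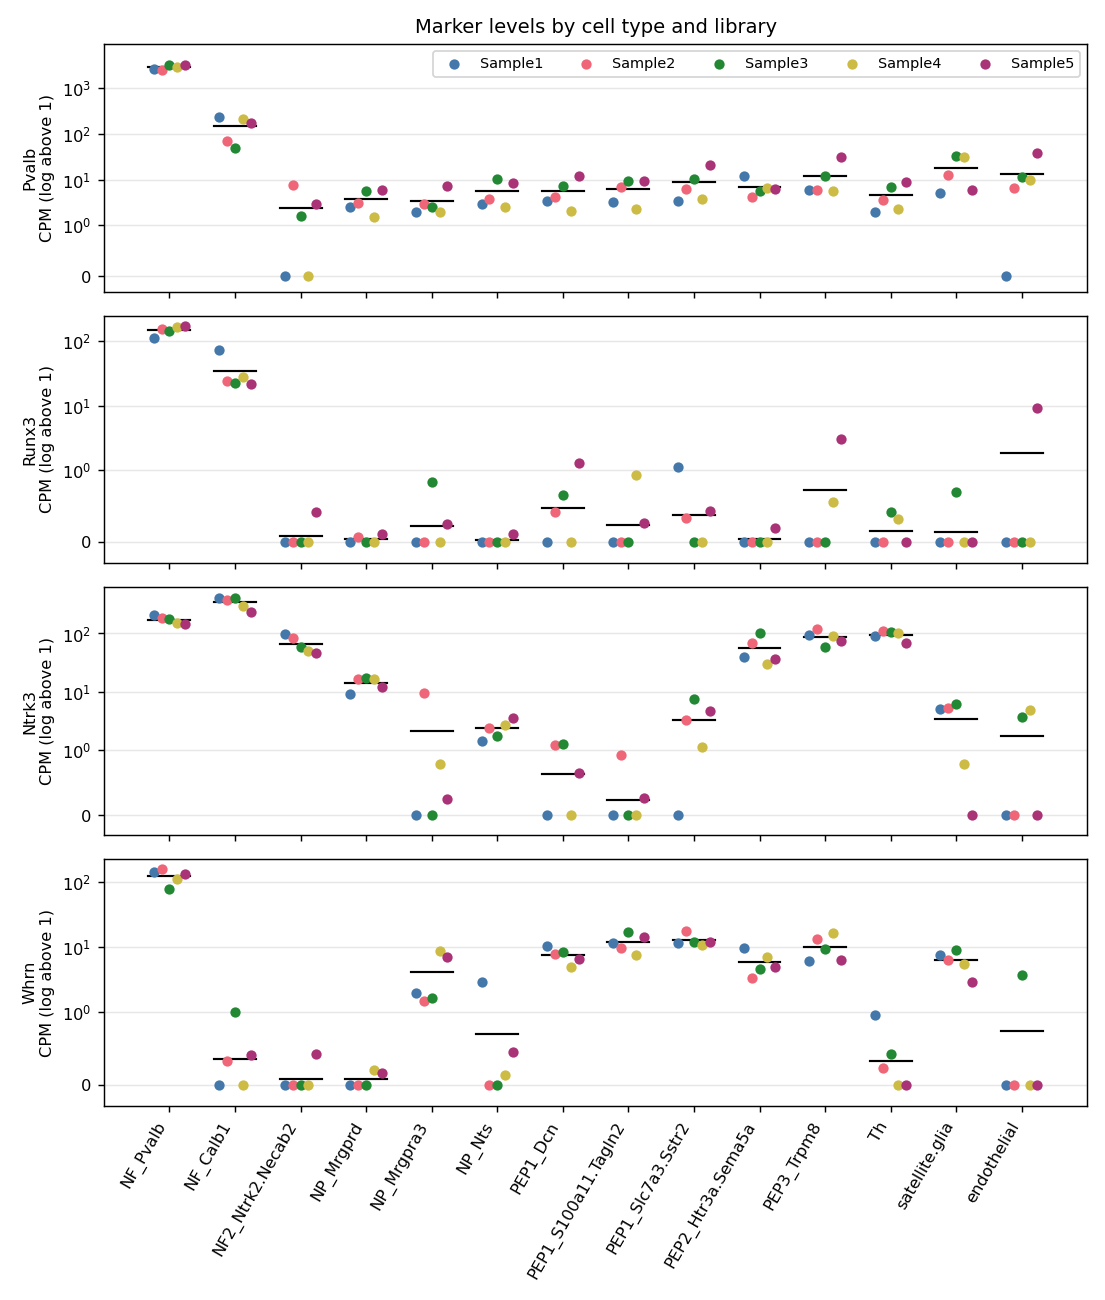
CPM of Pvalb, Runx3, Ntrk3 and Whrn in the summed cells of each of the 14 types (log scale above 1 CPM, linear below), with 1 point for each of the 5 libraries and a bar at their mean. Pvalb, Runx3 and Whrn were highest in NF_Pvalb in every library, while Ntrk3 was higher in NF_Calb1, at a mean of 341 CPM against 173 CPM.

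Single cells carried the same markers. All 113 NF_Pvalb cells held Pvalb UMIs, from 11 to 542 with a median of 164, and Runx3 and Ntrk3 were each found in 111 cells. The 4 cells that lacked one of the last pair had 15977 to 26103 UMIs, well below the median of 66720. In cells thinned to 10000 UMIs, Runx3 was found in 74.3% and Ntrk3 in 76.1% of NF_Pvalb cells. Among satellite glia, which are not known to make parvalbumin, 24.1% of cells held a Pvalb UMI and 0.402% a Runx3 UMI as deposited, at a median of 17729 UMIs per cell. A single Pvalb UMI was thus also common outside the type. The NF_Pvalb cell with the lowest share of Pvalb held 13 Pvalb, 6 Runx3, 19 Whrn and 43 Ntrk3 UMIs among 57729.

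Of 8 listed proprioceptor genes, Etv1, Whrn, Spp1 and Esrrg were high besides Pvalb, Runx3 and Ntrk3. Fxyd7, the last of the list, was lower than in NF_Calb1. Etv1 was 397, 561, 436, 467 and 578 CPM in Sample1 to Sample5, above every other type in every library, and NP_Nts followed with 320.4 CPM. Whrn, which encodes whirlin, a scaffold protein of mechanosensory cells, was 138, 153, 77.2, 111 and 129 CPM and at most 12.7 CPM on average in any other type. Spp1, which encodes the secreted protein osteopontin, was 911, 733, 728, 758 and 1099 CPM against 84.9 ± 20.7 CPM in NF_Calb1. Esrrg, an estrogen-related receptor, was 59.4, 79.0, 57.1, 65.4 and 88.9 CPM against 14.8 ± 3.65 CPM in NF_Calb1. For Etv1, Whrn, Spp1 and Esrrg the NF_Pvalb sum was above that of every other type in every library. This held for 6 of the 8 listed genes. It held for 3.94% of the 9138 genes with a UMI in at least 25% of NF_Pvalb cells. The list names genes by which such cells are recognised, so its count is a description.

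To find what was most particular to NF_Pvalb, genes were ranked by the ratio of their mean CPM there to that in the next highest of the other 13 types. The ranking took 7531 genes with a UMI in at least 25% of NF_Pvalb cells and a mean of at least 10 CPM. The first 20 were Lce1g, Pln, Sfmbt2, Pcdh8, Pvalb, Wnt7a, Myl2, Wdr72, Vstm2b, Smpx, Spp1, Whrn, Sspo, Myl3, Cdh22, Heatr5a, Srpx2, Cdh12, 2210011C24Rik and Cux2. Their ratios ran from 63.5 for Lce1g to 6.37 for Cux2. NF_Calb1 was the next type for 10 of them. In every library, 19 of the 20 were highest in NF_Pvalb, with Cdh22 as the exception. Of 9138 genes with a UMI in at least 25% of NF_Pvalb cells, 360 or 3.94% were highest of the 14 types in every library, and since the ranking used these levels the count of 19 is a description.

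The genes on this list have varied known roles. Wnt7a, a secreted signalling protein, was 53.7, 55.3, 39.5, 60.4 and 51.5 CPM in Sample1 to Sample5 and was detected in 88.5% of the cells. It was 3.19 ± 1.02 CPM in NF_Calb1, and the spread over libraries was small beside that gap. Pcdh8, Cdh12 and Cdh22 encode adhesion proteins of the cadherin family. Pcdh8 was 136 CPM in Sample1 but 41.1 to 55.4 CPM in the other libraries, so its mean of 66.7 CPM leaned on the 6 cells of Sample1. Lce1g, a gene of the late cornified envelope family, was 28.8, 37.5, 3.36, 5.61 and 9.44 CPM and was detected in 28.3% of the cells, so its rank at the top rested on a low and uneven level.

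Several genes better known from muscle stood on the list. Pln, which encodes phospholamban, a regulator of the calcium pump of the sarcoplasmic reticulum, was 67.1, 101, 69.7, 85.3 and 123 CPM. The next type was the endothelial cells at 1.85 CPM, a ratio of 48.2. Smpx, which encodes a small protein of striated muscle, was 34.5, 61.3, 68.8, 56.7 and 64.9 CPM against 5.74 ± 4.11 CPM in NF_Calb1. The myosin light chains Myl2 and Myl3 were lower, at 10.3 ± 4.40 CPM and 15.5 ± 3.34 CPM, and were detected in 45.1% and 53.1% of the cells. A list of 15 other skeletal muscle genes, added after these values were seen, summed to 4.94 to 13.4 CPM in the NF_Pvalb libraries and to 13.9 to 17.8 CPM in the other neurons. Of these 15 genes, Myh2, Myh7, Tnnt3, Tnnc2, Ryr1 and Casq1 were at 0 UMIs in NF_Pvalb.

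**Figure D2:**
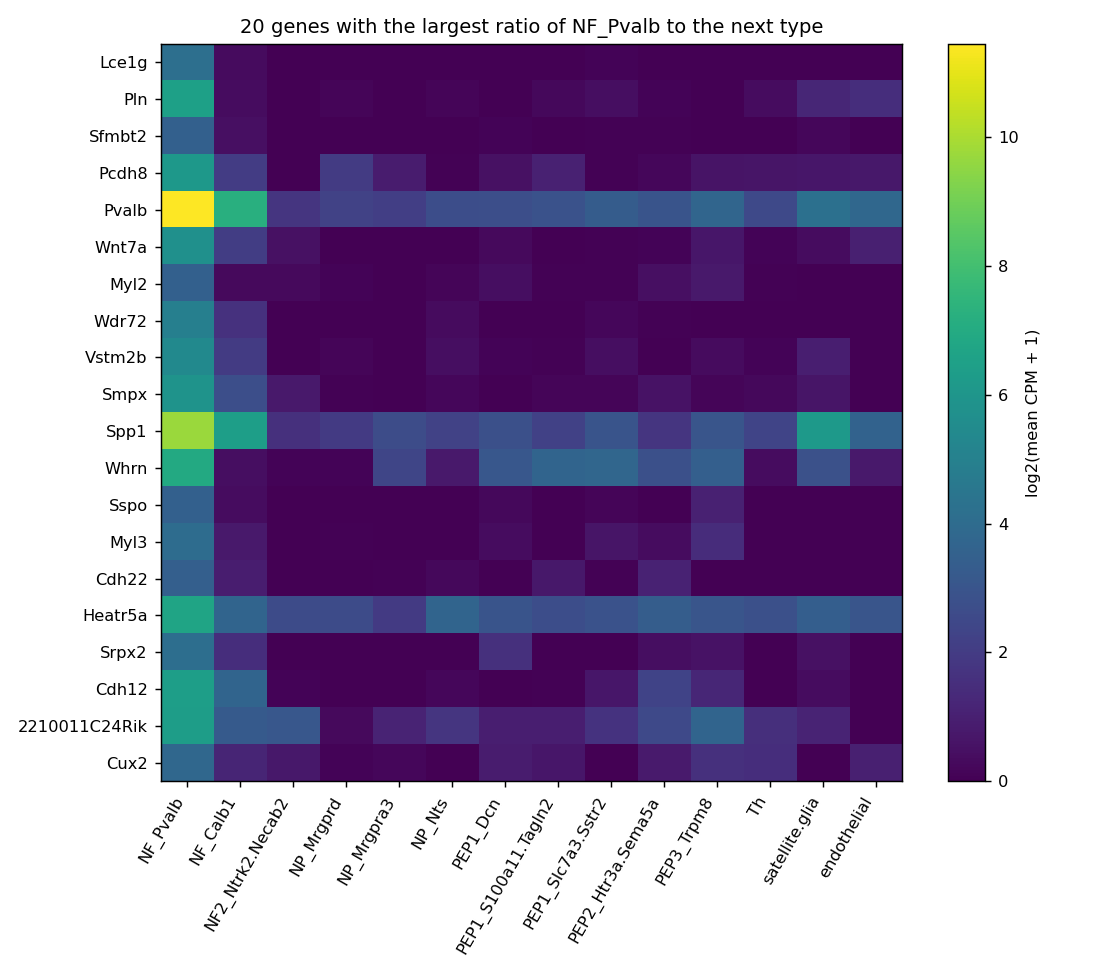
Mean CPM over 5 libraries, as log2(mean CPM + 1) in colour, of the 20 genes with the largest ratio of NF_Pvalb to the next type, in each of the 14 types. NF_Calb1 was the next type for 10 of the 20 genes, and Whrn was low in NF_Calb1 at 0.353 CPM.

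NF_Pvalb was then compared with the other neurons, the summed cells of the other 11 neuron types of the same library. Such a sum weights each type by its cells and their UMIs and is no average over types. NP_Mrgprd gave 900 of these 2934 cells and had the highest median of all types, 105150 UMIs per cell. A gene was called higher or lower when edgeR's quasi-likelihood test gave a Benjamini-Hochberg adjusted p under 0.01, the difference was at least 2-fold and at least 25% of the cells of the higher group held a UMI. Of 11850 genes tested, 1513 (12.8%) were called higher and 1474 (12.4%) lower in NF_Pvalb, with a median log2 fold change of -0.04. These shares are the background for the counts of gene groups. The types were clustered on the same counts, so the p-values describe the spread over libraries and are not independent evidence of the type. Of the 8 proprioceptor genes 7 were called higher, with log2 fold changes ± SE of 7.46 ± 0.33 for Pvalb, 6.30 ± 0.29 for Spp1, 5.80 ± 0.42 for Runx3, 5.69 ± 0.25 for Esrrg and 5.39 ± 0.16 for Whrn. Fxyd7 was not called, at 1325 ± 559 CPM against 811 ± 270.0 CPM. The list names the genes by which such cells are recognised, so its count is a description.

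The 15 genes with the largest differences included Pln, Nxph1, Lce1g, Irx3, Sfmbt2 and Wnt7a. Nxph1, which encodes a secreted ligand of neurexins, was 9.59, 10.9, 5.04, 7.47 and 5.18 CPM in NF_Pvalb and 0.00650 ± 0.00945 CPM in the other neurons. It was detected in 31.9% of NF_Pvalb cells and 0.0682% of the others. Irx3, a homeodomain transcription factor, was 17.4 ± 4.51 CPM against 0.0729 ± 0.0523 CPM among neurons, but it reached 149 CPM in endothelial cells. Cav1 and Thbd were among the 10 with the most negative differences. Both had 0 UMIs in the 113 cells, and against a limit of 3 UMIs over the group they were at least 61.0-fold and 50.3-fold lower.

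Transcription factors differed between NF_Pvalb and the other neurons in both directions. Of 26 tested genes of sensory transcription factors, 9 were called higher and 9 lower. Besides Runx3, Etv1 and Esrrg these included Esrrb, a second estrogen-related receptor, at 9.25 ± 2.57 CPM against 0.182 ± 0.0440 CPM. Shox2 was 109 CPM in Sample1 and 252 to 283 CPM in the other libraries, and 10.3 ± 4.16 CPM in the other neurons. The homeobox genes Hoxb8, Hoxc8 and Hoxc10, which carry positional identity along the body axis, were higher by 2.64 ± 0.19, 1.79 ± 0.22 and 1.57 ± 0.16 on the log2 scale. Prdm12, a factor of nociceptor development, was 0.788 ± 1.02 CPM against 72.8 ± 11.7 CPM. Runx1, which acts in nociceptors and other C-fibre neurons, was 32 ± 6.45 CPM against 137 ± 5.46 CPM. Isl2, Klf7, Tlx3 and Casz1 were also lower. Isl1 and Pou4f1, which all sensory neurons of the ganglion use, were detected in nearly all cells of both groups, and their log2 fold changes of 0.61 ± 0.10 and -0.84 ± 0.12 stayed below 2-fold. Against NF_Calb1, 6 of 21 tested genes of this group were called higher and 6 lower, beside 4.41% and 6.53% of all genes. Runx3, Etv1, Esrrg, Shox2, Hoxc8 and Hoxc10 were called higher there, and Isl2, Casz1 and Pou4f1 lower. Esrrb, Hoxb8, Prdm12, Runx1, Klf7 and Tlx3 were not called against NF_Calb1.

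Receptors for trophic factors were called in both directions. Ntrk3 was higher in NF_Pvalb by 1.63 ± 0.26 on the log2 scale (adjusted p = 3.8e-05 by edgeR's quasi-likelihood test). Ret, the signalling receptor for the GDNF family of ligands, was lower by a log2 fold change of -2.90 ± 0.15, and its coreceptors Gfra2 and Gfra3 were at 0.249 ± 0.557 CPM and 0.893 ± 1.24 CPM. Ntrk2, the receptor for brain-derived neurotrophic factor, was 9.04 ± 2.30 CPM against 38.0 ± 8.74 CPM, but was not called because it was detected in 22.5% of the other neurons. Ngfr, the shared neurotrophin receptor, was lower and its partner Sort1 higher, with log2 fold changes of -1.49 ± 0.18 and 2.93 ± 0.16. In all, 3 of 16 tested trophic factor receptors were called higher and 6 lower.

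Sodium channel genes were called in both directions. Of 11 tested, 4 were called higher, among them Scn1a, Scn8a and Scn4b, and 5 were called lower. Scn8a, a channel of the nodes of Ranvier, was 547, 381, 359, 288 and 308 CPM in Sample1 to Sample5 against 69.8 ± 33 CPM. Scn1a was 267, 154, 177, 135 and 153 CPM against 26.8 ± 16.1 CPM. Scn10a and Scn11a, the tetrodotoxin-resistant channels of nociceptors, were 2.53 ± 2.84 CPM and 2.91 ± 2.38 CPM against 197 ± 12.9 CPM and 171 ± 18.1 CPM. Scn9a was lower by a log2 fold change of -2.77 ± 0.20, and Scn2b by -4.95 ± 0.36. Each of these 6 genes kept its direction in 5 of 5 libraries. They were taken from the called genes, so this is a description. Of all 1513 genes called higher, 1460 were higher in 5 of 5 libraries. Of the 1474 called lower, 1450 were lower in 5 of 5.

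Potassium and HCN channels were the largest channel group, with 15 called higher and 14 lower of 46 tested. Kcnc1, which encodes a fast delayed rectifier that lets neurons fire at high rates, was 259, 330.0, 291, 245 and 306 CPM against 21.8 ± 5.17 CPM, a log2 fold change of 3.72 ± 0.16 (adjusted p = 1.7e-11 by edgeR's quasi-likelihood test). The low-threshold channels Kcna1 and Kcna2, which lie beside the nodes, were 902 ± 348 CPM and 444 ± 141 CPM against 243 ± 109 CPM and 115 ± 36.1 CPM. Kcns1, Kcnh2 and Kcnk1 were higher by 3.48 ± 0.16, 3.24 ± 0.22 and 3.15 ± 0.14 on the log2 scale. The pacemaker channel Hcn2 was higher by 2.37 ± 0.27. Kcns3, a silent potassium channel subunit, was 1.34 ± 2.48 CPM against 58.4 ± 9.12 CPM. Kcnd3, an A-type channel, was 0.930 ± 1.42 CPM against 51.0 ± 10.8 CPM. Against NF_Calb1, 6 of 32 tested genes of this group were called higher and 6 lower, beside 4.41% and 6.53% of all genes. Of the genes named here, Kcnc1 and Kcnk1 were called higher there and Kcns3 and Kcnd3 lower. Kcna1, Kcna2, Kcns1, Kcnh2 and Hcn2 were not called against NF_Calb1.

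Among calcium channels 3 of 14 were called higher and 6 lower. Cacna1c, an L-type channel, was 0.797 ± 0.471 CPM against 32.3 ± 3.48 CPM. The accessory subunits Cacna2d1 and Cacna2d2 were lower by log2 fold changes of -3.89 ± 0.22 and -3.36 ± 0.24, while Cacna2d3 and Cacng5 were higher by 1.36 ± 0.24 and 3.31 ± 0.18. Cacna1b, the N-type channel, was 46.0 ± 16.7 CPM against 121 ± 7.14 CPM.

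In the group of mechanotransduction and acid-sensing channels, 3 of 13 were called higher and 3 lower. Piezo2, the channel that touch and proprioception require, was 228, 224, 154, 203 and 197 CPM in NF_Pvalb against 225 ± 27.9 CPM in the other neurons. These ranges overlapped, the log2 fold change was -0.18 ± 0.11 and it was not called (adjusted p = 0.16 by edgeR's quasi-likelihood test). Piezo2 was found in all 113 NF_Pvalb cells and in 77.8% of the other neurons. Asic1 was 167, 240.1, 169, 181 and 189 CPM against 13.5 ± 4.35 CPM, and all 113 cells held it. Tmem63b was higher by 1.52 ± 0.11 on the log2 scale. Its relative Tmem63a had 0 UMIs in NF_Pvalb, at least 24.3-fold lower than in the other neurons against a limit of 3 UMIs over the group. Asic2 was lower by a log2 fold change of -1.42 ± 0.14.

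Genes of transmitter release were called in both directions. Slc17a7, the first vesicular glutamate transporter, was 500.5, 704, 437, 379.9 and 424 CPM in Sample1 to Sample5 against 26.9 ± 11.4 CPM, and every NF_Pvalb cell held it against 14.2% of the other neurons. Slc17a6, the transporter of most DRG neurons, was 16.9 ± 8.31 CPM against 158 ± 15.8 CPM. NF_Pvalb and the other neurons thus differed in opposite directions for the 2 transporters. Of 33 tested genes of the synaptic vesicle machinery, 8 were called higher and 14 lower. Vamp1, Syt2 and Cplx1, which encode a vesicle SNARE protein, a fast calcium sensor and a SNARE-binding protein, were higher by 2.78 ± 0.18, 2.65 ± 0.28 and 2.23 ± 0.14 on the log2 scale. Their relatives Vamp2, Syt1 and Cplx2 were lower, with log2 fold changes of -2.33 ± 0.20, -2.43 ± 0.19 and -4.36 ± 0.29. These 6 genes were picked from the list after their values were seen. Against NF_Calb1 only Cplx2 of the 6 was called, with a log2 fold change of -6.00 ± 0.20, and the other 5 lay between -0.94 and 0.45. Syt5 was 0.542 ± 0.826 CPM against 190.4 ± 16.2 CPM. Snap25, a SNARE protein of the plasma membrane, was 2424, 2582, 2029, 2330.0 and 2526 CPM against 439 ± 59.2 CPM.

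Receptors for GABA, glutamate and glycine were called higher for 12 and lower for 6 of 26 tested genes. Gabra3 was 25.1 ± 7.30 CPM against 3.36 ± 0.832 CPM. Grm8, a presynaptic metabotropic glutamate receptor, was higher by 3.31 ± 0.29 on the log2 scale, and the AMPA receptor subunits Gria2 and Gria4 by 1.90 ± 0.23 and 1.40 ± 0.23. Gria1 was found in 1 of the 113 cells and in 49.0% of the other neurons. Against NF_Calb1, 3 of 23 tested genes of this group were called higher and 6 lower, beside 4.41% and 6.53% of all genes. Gabra3 was among those called higher there, while Grm8, Gria2 and Gria4 were not called.

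Neurofilaments give large myelinated neurons their thick axons. Nefh was 7275, 5222, 5570.1, 4571 and 5027 CPM in NF_Pvalb against 873 ± 343 CPM, and Nefm was 4646 ± 821 CPM against 1075 ± 312 CPM. Nefl differed by less than 2-fold, with a log2 fold change of 0.87 ± 0.21, and was 7724 CPM in Sample1 but 2981 to 4278 CPM in the other libraries. Prph, the peripherin of small unmyelinated neurons, was 1267 ± 281 CPM against 4647 ± 302 CPM. Ina, which encodes the filament protein alpha-internexin, and the spectrin Sptbn4 of the axon initial segment were higher by 1.54 ± 0.13 and 2.19 ± 0.19 on the log2 scale. In this group 6 of 18 tested genes were called higher and 4 lower.

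Genes of the sodium-potassium pump and of energy supply were called higher for 14 and lower for 3 of 39 tested, a share of higher calls above the 12.8% of all genes. Fxyd2, a pump regulator, was 66.3 ± 36.6 CPM against 7006 ± 1129.7 CPM. Fxyd6 had 0 UMIs, at least 297.6-fold lower than in the other neurons against a limit of 3 UMIs over the group. Ckmt1, a mitochondrial creatine kinase, Ldhb, a lactate dehydrogenase subunit, and the glycolytic enzymes Aldoc and Eno2 were higher by 2.68 ± 0.13, 2.32 ± 0.17, 2.29 ± 0.12 and 2.11 ± 0.13 on the log2 scale. Ppargc1a, a coactivator of mitochondrial gene expression, was 118 ± 14.2 CPM against 15.4 ± 5.31 CPM. Fewer of the group were called against the other neurofilament types. Against NF_Calb1, 5 of 34 tested were called higher and 2 lower, and against NF2_Ntrk2.Necab2 4 of 35 higher and 4 lower. The shares of all genes called higher there were 4.41% and 9.79%. Ckmt1 and Aldoc were called higher against both types, Ppargc1a only against NF2_Ntrk2.Necab2, and Ldhb and Eno2 against neither.

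The mitochondrial share of UMIs moved with the differences from the other neurons. Its median per library was 6.12 to 8.20% in NF_Pvalb and 4.21 to 5.35% in the other neurons, a difference of 2.61 ± 1.15 percentage points (SD, n = 5) that was positive in 5 of 5 libraries. The exact two-sided sign-flip test gave p = 0.063, the smallest that 5 libraries allow. NF_Calb1 and NF2_Ntrk2.Necab2 combined had 7.30 ± 0.560% against 7.27 ± 0.787% in NF_Pvalb, with a difference of -0.0281 ± 0.875 percentage points (exact sign-flip p = 0.9375). Without the cells over 10% mitochondrial UMIs, 1564 genes were called higher and 1478 lower against the other neurons.

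**Figure D3:**
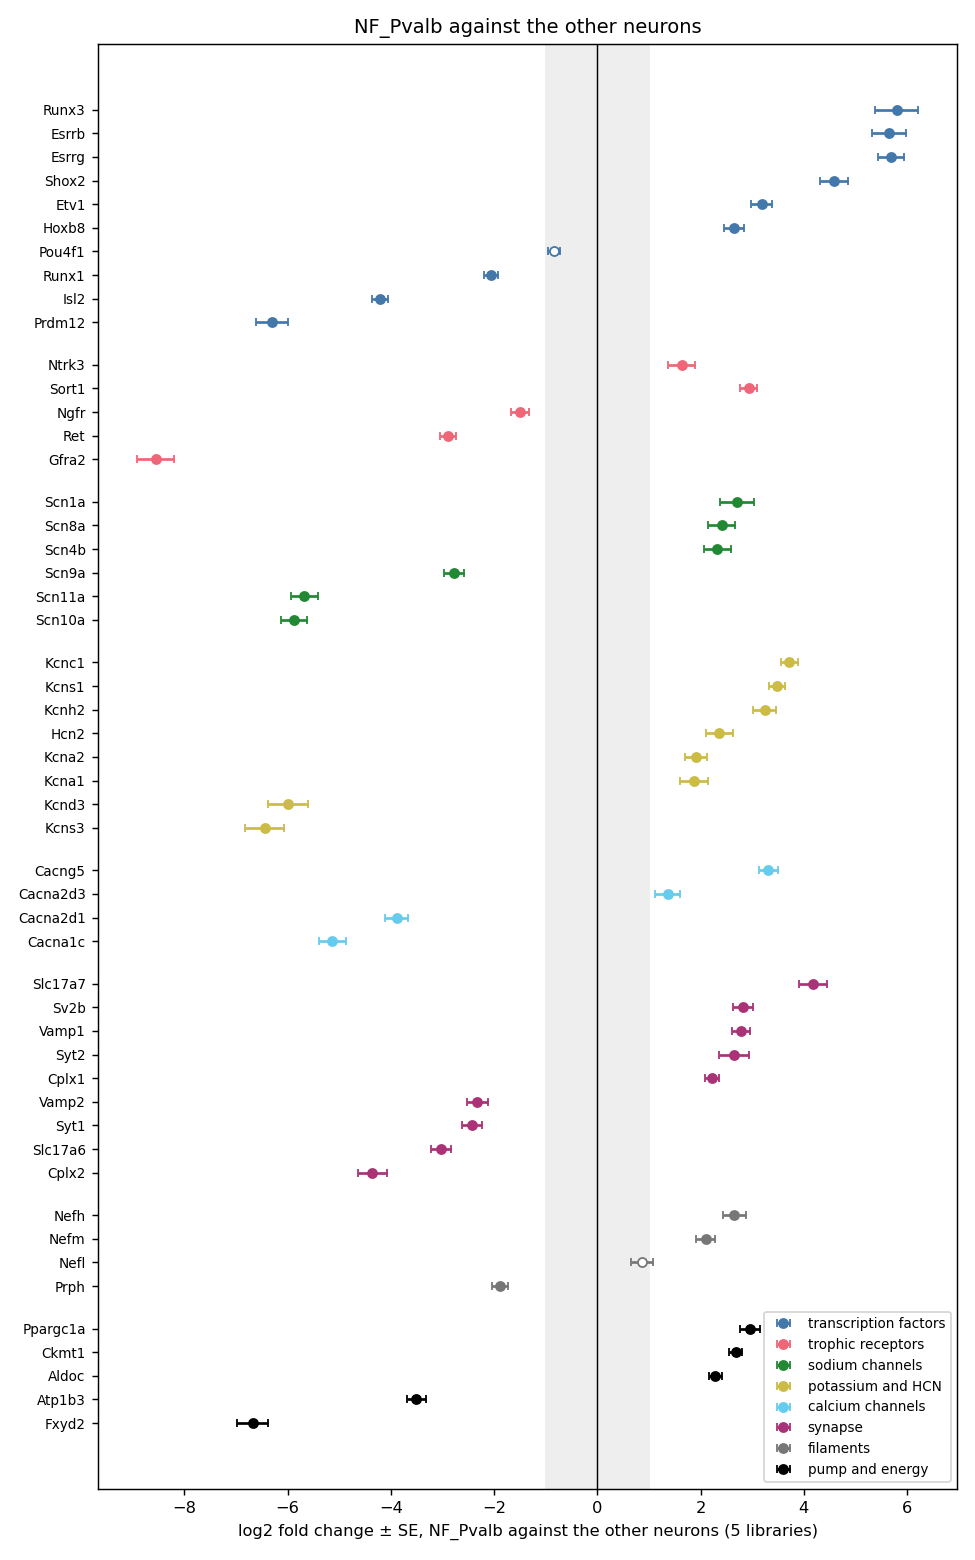
Log2 fold change of NF_Pvalb against the other neurons with its SE over 5 libraries, for genes of 8 groups. Filled points were called and open points were not, and the grey band marks differences below 2-fold. Each of the 8 groups held called genes on either side of 0, and Runx3 stood at 5.80 and Prdm12 at -6.30.

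Most genes of nociceptors were lower in NF_Pvalb than in the other neurons together. Of 18 tested nociceptor and C-fibre genes 12 were called lower and none higher, with a median log2 fold change of -5.97 against -0.04 over all genes. Calca, which encodes the peptide CGRP, was 23.0, 22.7, 37.8, 34.9 and 50.6 CPM against 3145 ± 425 CPM. Mrgprd was found in 1 of the 113 cells and Trpm8 in 0. If cells are counted as independent, the count of 0 allows a share of up to 2.65% of cells with a UMI. The cells share 5 libraries, with 58 of them in Sample5, so the true limit is wider. Tac1, which encodes substance P, was 179.9 ± 53.4 CPM against 1112 ± 187 CPM and was detected in 62.8% of NF_Pvalb cells. Against the other neurofilament types the direction differed for some of the list. Tac1 and Adcyap1, which encodes the peptide PACAP, were called higher than in NF_Calb1, where 3 of 9 tested genes were called lower. Against NF2_Ntrk2.Necab2, Tac1, Runx1 and Adcyap1 were called higher and 1 of 5 tested genes lower. Only 9 and 5 of the 19 listed genes could be tested against these types. Of all genes, 4.41% were called higher and 6.53% lower against NF_Calb1, and 9.79% and 8.78% against NF2_Ntrk2.Necab2. Adcyap1 was 40.8 ± 18.1 CPM in NF_Pvalb, 4.0 ± 2.93 CPM in NF_Calb1 and 11.5 ± 7.97 CPM in NF2_Ntrk2.Necab2, and Runx1 was 32 ± 6.45, 26.7 ± 13.3 and 10.0 ± 4.03 CPM. Gal and Nmb, peptides of other sensory neurons, were 0.841 ± 0.609 CPM and 7.08 ± 4.29 CPM against 225 ± 25.6 CPM and 534 ± 36.0 CPM.

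Satellite glia surround each neuron and can adhere to it. The 7 satellite glia markers summed to 44.1 to 309 CPM in the NF_Pvalb libraries, to 116.9 to 264 CPM in the other neurons and to 80577 to 104235 CPM in the glia themselves, with Cdh19 and Sox10 at 0 in NF_Pvalb. Of the 3 that could be tested against the other neurons none was called. Apoe gave the highest of these sums, with 217 CPM in Sample2 and 44.1 to 76.2 CPM in the other libraries. Without Sample2 Apoe was called lower than in the other neurons, with a log2 fold change of -1.08. Against NF2_Ntrk2.Necab2 Apoe was called higher in NF_Pvalb, at 94.3 ± 69.9 CPM against 40.9 ± 12 CPM, a log2 fold change of 1.11 ± 0.32, but not without Sample2 (0.73), Sample3 (1.11) or Sample5 (1.05). Mbp, a Schwann cell marker, was called higher than in NF_Calb1, at 15.7 ± 8.01 CPM against 7.5 ± 2.48 CPM, but not without Sample2 or Sample5. The part of glial RNA in these comparisons was not tested. Schwann cell markers summed to 53.7 to 79.0 CPM and endothelial markers to 23.0 to 51.7 CPM, with Prx, Tek and Emcn at 0. The 4 fibroblast markers summed to at most 0.988 CPM and the 6 macrophage markers to at most 3.11 CPM.

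Within the ganglion, the profile of NF_Pvalb was nearest to that of NF_Calb1. Across 16248 genes, its log2(CPM + 1) correlated within a library with NF_Calb1 at a mean Pearson r of 0.943, with NF2_Ntrk2.Necab2 at 0.900 and with PEP2_Htr3a.Sema5a at 0.897, down to 0.557 for endothelial cells. The ranges over libraries of NF2_Ntrk2.Necab2 (0.871 to 0.918) and PEP2_Htr3a.Sema5a (0.879 to 0.906) overlapped, so their order was not resolved. The sums of a library share its depth and free RNA, and genes are not independent, so these values only describe the order. NF_Calb1 and NF2_Ntrk2.Necab2, the other neurofilament types, were compared with NF_Pvalb on their own. Both comparisons use the same NF_Pvalb sums.

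Against NF_Calb1, 393 of 8919 genes (4.41%) were called higher and 582 (6.53%) lower. Whrn, Pln and Ina were higher by 7.91 ± 0.30, 7.72 ± 0.32 and 7.43 ± 0.27 on the log2 scale. Ina was 127, 173, 126, 149 and 143 CPM in NF_Pvalb and 1.01 ± 0.773 CPM in NF_Calb1, and its log2 fold change against all other neurons was 1.54 ± 0.13. Sv2a, a vesicle protein, was 44.1, 84.0, 51.2, 79.1 and 79.5 CPM against 1.34 ± 0.888 CPM. Kcnip2, a partner of A-type channels, was 136, 139, 130.1, 158 and 138 CPM against 6.54 ± 6.77 CPM. The axon guidance receptor Dcc, the activin subunit Inhbb, the transcription factor Nkx6-2 and the Wnt transport protein Wls were higher by 6.34 ± 0.57, 5.16 ± 0.50, 5.14 ± 0.43 and 4.98 ± 0.22. Of the 8 proprioceptor genes 6 were called higher and Fxyd7 lower, with 1325 ± 559 CPM against 3025 ± 468 CPM. Ntrk3 was below NF_Calb1 in 5 of 5 libraries but by less than 2-fold, with a log2 fold change of -0.93 ± 0.15.

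Channel genes were among those called in both directions. Kcnc1, Asic1 and Slc17a7 were higher than in NF_Calb1 by 1.96 ± 0.14, 2.06 ± 0.15 and 1.15 ± 0.16 on the log2 scale. Nefh, Scn1a and Scn8a were not called, at 5533 ± 1039, 177 ± 52.2 and 377 ± 102 CPM against 5351 ± 812, 175 ± 36.2 and 431 ± 78.5 CPM. Of the calcium channel genes 0 of 10 were called higher and 5 lower, beside 4.41% and 6.53% of all genes. Piezo2 was lower in 5 of 5 libraries, 201 ± 29.4 CPM against 345 ± 35.7 CPM, by less than 2-fold (log2 fold change -0.72 ± 0.12).

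Genes that were lower than in NF_Calb1 included receptors and adhesion proteins. Nrp1, a receptor for semaphorins, was 0, 0, 2.52, 0.623 and 0.305 CPM against 175 ± 33 CPM. Lhfpl2, Hcrtr2 and Cdh3 had 0 UMIs in NF_Pvalb, at least 51.9-fold, 36.3-fold and 28.4-fold lower against a limit of 3 UMIs over the group. Ret, Ntrk2 and Calb1 were lower by log2 fold changes of -3.45 ± 0.22, -3.92 ± 0.19 and -3.84 ± 0.31. Of 7 tested touch receptor genes 5 were called lower and Shox2 higher. Tac1 was above NF_Calb1 in 5 of 5 libraries, at 179.9 ± 53.4 CPM against 12.2 ± 8.37 CPM.

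Against NF2_Ntrk2.Necab2, which had 58 cells, 776 of 7928 genes (9.79%) were called higher and 696 (8.78%) lower. Pvalb, Runx3, Spp1 and Whrn were higher by 9.92 ± 0.32, 9.08 ± 0.35, 9.07 ± 0.31 and 8.75 ± 0.40 on the log2 scale. Asic1 was 0.624 ± 0.676 CPM in NF2_Ntrk2.Necab2 and Cacng5 0.0837 ± 0.187 CPM, against 189 ± 29.9 CPM and 49.8 ± 11 CPM in NF_Pvalb. Ano1, a chloride channel activated by calcium, and Grm8 had 0 UMIs in NF2_Ntrk2.Necab2 and were at least 89.9-fold and 72.4-fold higher in NF_Pvalb against a limit of 3 UMIs over the group. Ntrk2, which is in the name of the other type, was 9.04 ± 2.30 CPM in NF_Pvalb against 756 ± 113 CPM. Cacna1h, a T-type calcium channel, was found in 1.77% of NF_Pvalb cells and in all 58 cells of the other type. Piezo2 was 546 ± 47.5 CPM there and called higher than in NF_Pvalb, with a log2 fold change of -1.53 ± 0.13 for NF_Pvalb. Fxyd2 was 66.3 ± 36.6 CPM against 10027 ± 3600.5 CPM.

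Nefh, Scn1a and Scn8a were called higher than in NF2_Ntrk2.Necab2 by 1.56 ± 0.14, 1.06 ± 0.18 and 1.06 ± 0.17 on the log2 scale. The potassium channel gene Kcns3 was 1.34 ± 2.48 CPM in NF_Pvalb, 109 ± 11.1 CPM in NF_Calb1 and 196 ± 24.2 CPM in NF2_Ntrk2.Necab2. Nrp1 was 0.689 ± 1.05, 175 ± 33 and 324 ± 73.7 CPM in the same order. For both genes every NF_Pvalb library was below every library of these 2 other types. Both were among the 10 genes with the most negative log2 fold change in each comparison, so this separation is a description.

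**Figure D4:**
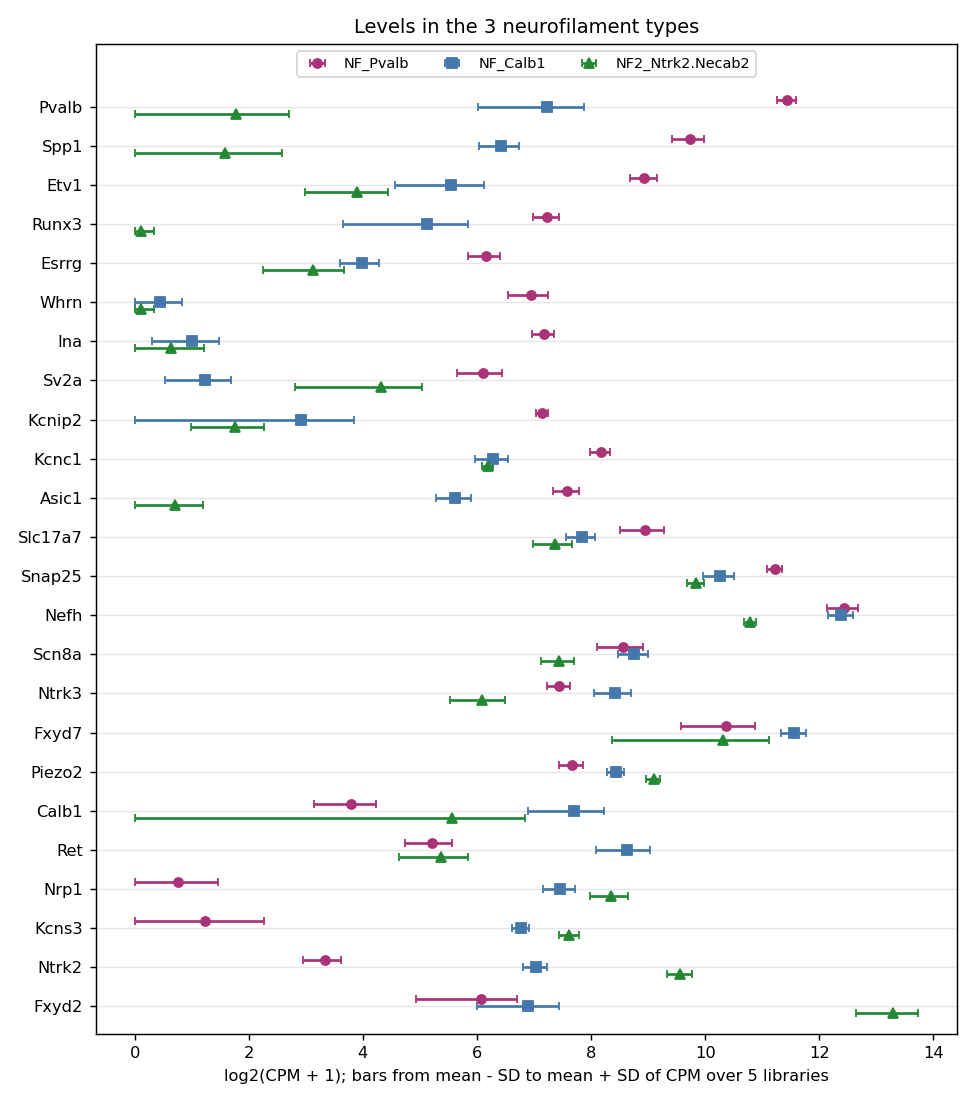
Levels of 24 genes in the 3 neurofilament types as log2(CPM + 1), with points at the mean over 5 libraries and bars from the mean minus the SD to the mean plus the SD. Ina and Whrn were near 0 in NF_Calb1 and NF2_Ntrk2.Necab2, Nefh was at 5533 and 5351 CPM in NF_Pvalb and NF_Calb1, and Nrp1 and Kcns3 were low in NF_Pvalb alone of the 3 types.

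The border between NF_Pvalb and NF_Calb1 was also examined cell by cell. Of 180 NF_Calb1 cells, 30 held at least 3 Runx3 UMIs, with 6, 4, 7, 4 and 9 of them in Sample1 to Sample5. At least 10 Pvalb UMIs were found in 24 of these 30 cells and in 19 of the other 150 NF_Calb1 cells. None of the 30 held a Whrn UMI, whereas 99 of the 107 NF_Pvalb cells with at least 3 Runx3 UMIs did. If cells are counted as independent, 0 of 30 allows a share of up to 10%, and shared libraries widen this limit. The median of the 30 cells was 65240.5 UMIs per cell against 66720 in NF_Pvalb. Pooled over these 30 cells, Pvalb was 572 CPM against 2892 CPM in NF_Pvalb, Ret 216 CPM against 33.6 CPM and Ina 1.93 CPM against 145 CPM. These cells were chosen by their Runx3 UMIs after the values were seen, so the values describe them and no test was made.

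Variation among the 113 cells was measured as the variance of a gene's UMIs beyond counting error, relative to its squared mean (overdispersion). Over 5716 genes with at least 150 UMIs its median was 0.0831, and Pvalb and Runx3 were near it at 0.10 and 0.07. The most uneven genes included S100a6, Cartpt, Isg15, Chodl, Asic3, Pappa2 and Apoe, with 13.1, 12.8, 11.5, 7.68, 7.37, 7.02 and 6.55. Isg15, a gene of the interferon response, went with Ifit1, another such gene (Pearson r = 0.68 across the 113 cells). Apoe is also a satellite glia marker. All correlations across cells are descriptions, since cells of a library share that library, and their depths differed.

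Chodl, which encodes a membrane protein of the C-type lectin family, had at least 3 UMIs in 21 cells, with 3, 4, 3, 4 and 7 in Sample1 to Sample5. Asic3, an acid-sensing channel, had at least 3 UMIs in 13 cells, with 2, 2, 2, 2 and 5. Both genes were that high in 6 cells, either in 28 and neither in 85. Each library therefore contributed cells with Chodl and cells with Asic3.

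In the Chodl cells, Fxyd7 was 3051 CPM against 679 CPM in the other NF_Pvalb cells, as means over 5 libraries. Spp1 was 353 CPM against 1023 CPM, Pvalb 2103 CPM against 3094 CPM, Sv2a 15.3 CPM against 88.3 CPM and Fam102b 19.3 CPM against 229 CPM. Kcnc1, at 142 CPM against 334 CPM, and Tac1, at 449 CPM against 122 CPM, had this direction in 4 of 5 libraries. In the Asic3 cells Syndig1l was 96.2 CPM against 10.1 CPM, Rph3a, an effector of vesicle release, 420 CPM against 86.9 CPM and the neuronal pentraxin Nptx1 51.7 CPM against 5.55 CPM. Whrn was 43.5 CPM against 139.9 CPM, Tac1 49.4 CPM against 214 CPM, Spp1 508 CPM against 923 CPM and Inhbb 1.94 CPM against 27.5 CPM. These genes were picked after their values were seen, and the values are given as a description. Depth moved with both choices. Cells with a high Chodl count had a median of 80800.0 UMIs and those with a high Asic3 count of 84877 UMIs, against 61113 and 60839.5 UMIs in the respective other cells, and the part of depth in these differences was not tested.

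Some genes varied in opposite directions across the cells. Fxyd7 and Kcnc1 had a Pearson r of -0.79 across the 113 cells, from -0.91 to -0.70 within the 4 libraries with at least 10 cells. Tac1 and Nefh had an r of -0.70, and Asic3 and Syndig1l of 0.76. Kcnc1 had at least 3 UMIs in 106 cells and Fxyd7 in 66, and the 7 cells with fewer than 3 Kcnc1 UMIs all held at least 3 Fxyd7 UMIs. Levels of Fxyd7 therefore ran from 0 UMIs in 22 cells to 822 UMIs in a single cell.

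**Figure D5:**
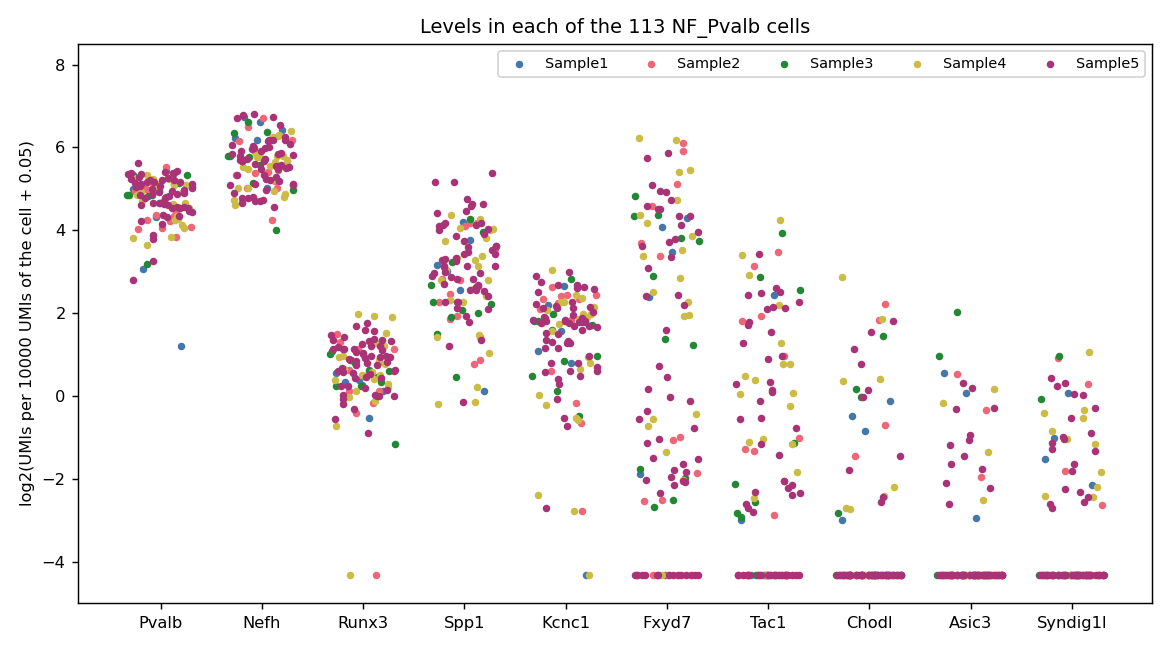
UMIs per 10000 UMIs of the cell, as log2(value + 0.05), of 10 genes in each of the 113 NF_Pvalb cells, with 1 point per cell coloured by library and the lowest row at 0 UMIs. Pvalb and Nefh formed a single band, while Fxyd7, Tac1, Chodl, Asic3 and Syndig1l ran from 0 UMIs upward in cells of several libraries.

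Of 9 genes listed as varying among proprioceptors with different endings, 5 were detected in at least 25% of the cells. Efna5 was found in 89 of the 113 cells, Vstm2b in 74, Crtac1 in 73, Sema5a in 40 and Nxph1 in 36, while Cdh13 was found in 23, Pou4f3 in 8, Heg1 in 4 and Calb2 in 1. Of the 7 that could be tested against the other neurons, Vstm2b and Nxph1 were called higher and none lower. Sema5a and Efna5 were called lower than in NF_Calb1, with log2 fold changes of -2.91 ± 0.30 and -1.54 ± 0.16, and Crtac1 higher than in NF2_Ntrk2.Necab2, by 2.25 ± 0.33. Cells were not grouped by these genes.

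Measures of the whole cell were compared last. The median number of UMIs per NF_Pvalb cell was 84756.5, 82369, 108577, 72650.5 and 56723.5 in Sample1 to Sample5, against 57484 to 82821 for the other neurons. The mean log2 ratio of the medians was 0.226 ± 0.343, with NF_Pvalb higher in 4 of 5 libraries (exact two-sided sign-flip p = 0.125). It rested on Sample3, where it was 0.809, and fell to 0.0804 without that library. In cells thinned to 10000 UMIs, which left none out, NF_Pvalb cells held a median of 3284 ± 57.1 genes against 3177 ± 16.1 genes, a difference of 107 ± 62.5 genes that was positive in 5 of 5 libraries (exact sign-flip p = 0.063). Against NF_Calb1 and NF2_Ntrk2.Necab2 together the differences were -0.144 ± 0.306 for the log2 ratio of UMIs (exact sign-flip p = 0.3125) and -85.0 ± 114 genes (exact sign-flip p = 0.25). The 3 sign-flip tests against the other neurons could not pass an adjusted threshold of 0.05 with 5 libraries.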

How the data were processed

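Lumbar dorsal root ganglion cells of 5 mice were profiled with the Chromium 3′ assay. The authors counted UMIs with Cell Ranger 2.0.0 on mm10, kept cells with 500 to 15000 genes and at most 10% mitochondrial UMIs, integrated and clustered them with Seurat 3.0.1 (15 principal components, resolution 0.6) and named the clusters from marker genes. They deposited raw UMI counts per gene and cell, not normalized, and 1 cell type per cell as text, which was used unchanged. By the 37 mitochondrial rows of the matrix, 188 cells, 10 of them NF_Pvalb, were above 10%. Doublets were kept few by the authors through a low loading of each lane, and were not called here. The matrix held 17267 gene rows and 4 rows that name no mouse gene, which were left out and held 143 of all UMIs. The annotation spells NF_Calb1 with a digit in place of a letter, which was corrected.

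Libraries are the last part of the cell names. They were named Sample1 to Sample5 because their cells per type equalled those of the study's supplement in 70 of 70 counts, and the labels do not say whether they were processed together.

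The members, gene lists and comparisons were chosen with earlier results of these data known. Besides the listed genes, the 15 genes with the most positive and the 10 with the most negative log2 fold change per comparison (called, and in that direction in 5 of 5 libraries) and the 20 with the largest ratio to the next type could be named. Some genes are not reported here. Genes described for variation among cells and the skeletal muscle list were chosen after their values were seen.

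UMIs were summed per library and tested with edgeR 4.0.16 in R 4.3.3 (filterByExpr, TMM, quasi-likelihood test, Benjamini-Hochberg over all genes tested), after tests on simulated data. SE is the absolute log2 fold change divided by the square root of F. The exact two-sided sign-flip test over libraries was used for per-cell medians. Python 3.11.15 with numpy 2.4.6, scipy 1.17.1 and pandas 2.3.3 was used. Both sums of a comparison come from the same mouse: with group means removed, their correlation across genes was 0.0136 to 0.511 over the libraries against the other neurons, 0.0167 to 0.483 against NF_Calb1 and 0.0443 to 0.335 against NF2_Ntrk2.Necab2. The library was not a term in the tests, and was one in an alternative. Other alternatives were DESeq2 1.42.0, no filter on low counts, no minimum share of cells, a threshold of 0.05 for the adjusted p, thinned cells, cells up to 10% mitochondrial UMIs, other comparison cells and leaving out each library. Gene and promoter coordinates are from RefSeq, where 477 of 481 genes looked up matched by symbol and chromosome. A 3′ count does not separate isoforms, and reads shared by near-identical genes could not be examined.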

Additional observations from a re-analysis of the deposited data

Results flagged for a closer look

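Of 104 values examined in NF_Pvalb over the 5 libraries (gene levels, the share of cells and medians per cell), 13 had 1 library set apart from the other 4 by Dixon's criterion (0.71 for 5 samples), which chance gives in about 1 of 20 groups. In Sample1, which rests on 6 cells, the value was high for Pcdh8 (136 CPM against 41.1 to 55.4 CPM in the others), Nefl (7724 against 2981 to 4278 CPM), Nefm (6106 against 4152 to 4408 CPM), Kcna2 (690.3 against 344 to 416 CPM), Cacna1b (74.8 against 31.7 to 42.4 CPM), Cacna2d3 (53.7 against 25.6 to 29.9 CPM) and Ano1 (55.6 against 43.9 to 46.2 CPM). It was low in Sample1 for Shox2 (109 against 252 to 283 CPM). Sample2 was high for Apoe (217 against 44.1 to 76.2 CPM), Cplx1 (2220.0 against 1553 to 1679 CPM) and Vamp1 (813 against 513 to 597 CPM). Sample4 was high for S100a6 (293 against 15.3 to 44.2 CPM) and Fxyd2 (129.5 against 42.2 to 65.8 CPM).

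A row named SV40, which is no mouse gene and was left out of all comparisons, held 21 UMIs in 2 NF_Pvalb cells, 16 in one and 5 in the other, of 34 UMIs in 8 cells of all types. The deposited text used here does not say what this row stands for.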

How the results depend on the processing

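Fewer genes were called at a lower depth per cell. With every cell thinned to 10000 UMIs, 810 genes were called higher and 719 lower than in the other neurons. The counts were 144 and 261 against NF_Calb1, and 211 and 178 against NF2_Ntrk2.Necab2. Thinning lowers both the UMIs in the sums and the share of cells with a UMI, and the part of each was not tested. With the replicate block, which pairs both sums of a mouse, the counts were 1551 and 1483, 403 and 586, and 773 and 695. The block also brought Apoe (-0.83) under the adjusted p threshold against the other neurons, and Cplx1 (0.45) and Syt1 (-0.76) against NF_Calb1, all below 2-fold, and changed the side of the threshold for no other named gene. Leaving out each library in turn gave 1403 to 1578 higher and 1439 to 1530 lower genes against the other neurons, 355 to 489 and 533 to 669 against NF_Calb1, and 709 to 868 and 636 to 786 against NF2_Ntrk2.Necab2. The log2 ratio of UMIs per cell then ranged from 0.0804 to 0.287, the difference in genes from 91.75 to 132.375, that in mitochondrial share from 2.28 to 3.0 percentage points and the share of cells from 2.90 to 3.35%.

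As means over cells, the log2 ratio of UMIs was -3.75e-05 (exact sign-flip p = 1). Against NF_Calb1 and NF2_Ntrk2.Necab2 together the differences were -0.144 in log2 UMIs, -85.0 genes and -0.0281 percentage points of mitochondrial UMIs. Against NF_Calb1, Scn1a had a log2 fold change of -0.21 with thinned cells and of -0.054 to 0.11 with 1 library left out, and Nefh of -0.0099 to 0.21, where the negative values were those without Sample1. Fxyd7 against the other neurons was past the adjusted p threshold without Sample1 but below 2-fold (0.96), and Apoe had a log2 fold change of -4.69 when glia were among the comparison cells. The causes were not tested. All other counts stayed within 1.5 times those reported, and with DESeq2 the median log2 fold change against the other neurons was -0.12. With DESeq2, Apoe against NF2_Ntrk2.Necab2 was no longer past the threshold (adjusted p = 0.0369). Of 2230 alternative values for 171 named results, 2205 kept direction and side of the threshold, 3 reversed, 16 became past it and 6 no longer were.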
